A study of Mus musculus with 20 samples.

Results

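Ubiquitin conjugating and deubiquitinating enzymes were followed through mouse preimplantation development, from the oocyte to the blastocyst. The genes were taken by symbol from the array's annotation, as every gene whose name begins with Ube2, Uba, Usp, Otud, Uch or Senp, leaving out names that begin with Ubap or Ubas. The rule found 66 genes among 9607 named genes, with 118 probe sets between them, and each gene was read from its brightest probe set. They comprise 1 activating enzyme (Uba6), 19 genes of the Ube2 conjugating family, 30 Usp and 6 Otud deubiquitinases, 6 Senp proteases and Uspl1. The symbols also brought in 3 genes of other kinds. These are Usp6nl, a GTPase activator of Rab proteins, Ube2cbp, now named Ube3d and a ligase, and Usp46os2, a non-coding RNA.

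Total RNA of oocytes and of 1-cell embryos, 2-cell embryos, 8-cell embryos and blastocysts was hybridised to the Affymetrix MOE430B array, with 4 arrays per stage and 20 arrays in all. All RNA was amplified by in vitro transcription, in 2 rounds. The labels give no strain, age, culture condition or oocyte maturity, and do not say how many oocytes or embryos were pooled or whether the 4 arrays of a stage came from separate collections. P-values therefore measure the spread between these arrays, which may be technical. The values are linear intensities as deposited, they compare stages of the same probe set and not different genes, and the number of arrays limits their precision. Because each array reads whole oocytes or embryos, fewer cells with a transcript and less transcript per cell cannot be told apart.

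A ubiquitin chain is built by an activating enzyme (E1), a conjugating enzyme (E2) and a ligase (E3), and deubiquitinating enzymes trim or remove it. The small proteins SUMO and NEDD8 are attached and removed by parallel sets of enzymes, and Senp proteases and Uspl1 belong to that part of the system. During the passage from oocyte to embryo, maternal proteins and RNAs are degraded while the embryonic genome is activated, which in the mouse takes place mainly at the 2-cell stage.

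The stage labels were set against defining markers of the oocyte and the blastocyst. The 4 oocyte markers on the array (Bmp15, Zar1, Oosp3, Padi6) summed to 617 to 933 intensity units on the blastocyst arrays, against 54866 to 67827 on the oocyte arrays. Epcam and Dab2, the 2 trophectoderm markers on the array, summed to 2354 to 3578 on the blastocyst arrays, against 349 to 518 on the oocyte arrays. Esrrb, the only inner cell mass marker on the array, averaged 389.8 ± 85.7 in blastocysts and 299 ± 17.3 in oocytes, which was not called (limma adjusted p = 0.145), and blastocysts were below the 657 ± 76.9 of 8-cell embryos (limma adjusted p = 0.0044). Of the 4 cumulus and granulosa cell markers on the array, Foxl2 and Inhba were called in none of the 5 comparisons made here and Ptx3 lay below the filter and was not tested, whereas Amhr2 averaged 2053 at the 2-cell stage, against 167 at the 1-cell stage. The 1-cell arrays stood apart in one control. A probe set for 18S ribosomal RNA averaged 37007 ± 4510.1 on them (SD, n = 4), against 650.2 ± 197 in oocytes, and lay between 1578 and 3808 on the arrays of the 3 later stages. The array medians lay between 67.8 in an oocyte sample and 93.2 in an 8-cell sample. The log2 ratio of the 3′ to the 5′ probe set of actin, which reflects RNA length, averaged 2.41 in oocytes, 1.86 in 1-cell embryos, 2.33 in 2-cell embryos, 1.93 in 8-cell embryos and 1.09 in blastocysts. For Gapdh the same ratio ran otherwise, at 2.05 in oocytes, 2.17 in 1-cell embryos, 2.28 in 2-cell embryos, 1.04 in 8-cell embryos and 2.38 in blastocysts. The part of these differences in the values below was not tested.

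Promoter sequences are shown for 4 members chosen by hand, as context for the values that follow. Of the 66 members, 55 have a promoter of 300 bases in the RefSeq table used here (build GRCm38.p6). Usp16, which peaked at the 2-cell stage, lies on the + strand at chr16:87454735-87455034. Ube2v1, which rose over the embryonic stages, lies on the - strand at chr2:167631956-167632255. Usp46, which was highest in oocytes, lies on the - strand at chr5:74068362-74068661. Usp28, which shared the calls of Usp46 between consecutive stages but had its highest mean at the 1-cell stage, lies on the + strand at chr9:48985135-48985434. Each is printed 5′ to 3′ in lower case, with capitals for matches on either strand to CCAAT, to the GC box GGGCGG or to the E box CACGTG, and overlapping matches are counted separately.
Usp16: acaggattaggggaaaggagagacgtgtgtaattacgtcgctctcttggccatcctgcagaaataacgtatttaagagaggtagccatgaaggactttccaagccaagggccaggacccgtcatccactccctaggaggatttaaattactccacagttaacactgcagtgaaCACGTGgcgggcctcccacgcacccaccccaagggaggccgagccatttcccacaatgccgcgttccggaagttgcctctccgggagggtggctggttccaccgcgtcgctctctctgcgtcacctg
Ube2v1: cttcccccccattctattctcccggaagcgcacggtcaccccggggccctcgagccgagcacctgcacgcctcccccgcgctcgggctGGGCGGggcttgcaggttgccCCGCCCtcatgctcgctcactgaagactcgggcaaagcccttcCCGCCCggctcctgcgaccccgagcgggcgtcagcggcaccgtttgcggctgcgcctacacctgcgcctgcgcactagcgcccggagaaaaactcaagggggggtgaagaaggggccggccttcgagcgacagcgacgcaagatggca
Usp46: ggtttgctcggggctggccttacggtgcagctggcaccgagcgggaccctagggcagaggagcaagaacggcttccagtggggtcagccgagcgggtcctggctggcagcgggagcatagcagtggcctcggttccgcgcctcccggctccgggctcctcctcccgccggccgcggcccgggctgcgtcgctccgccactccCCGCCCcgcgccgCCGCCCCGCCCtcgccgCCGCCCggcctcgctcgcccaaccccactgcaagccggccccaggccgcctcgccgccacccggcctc
Usp28: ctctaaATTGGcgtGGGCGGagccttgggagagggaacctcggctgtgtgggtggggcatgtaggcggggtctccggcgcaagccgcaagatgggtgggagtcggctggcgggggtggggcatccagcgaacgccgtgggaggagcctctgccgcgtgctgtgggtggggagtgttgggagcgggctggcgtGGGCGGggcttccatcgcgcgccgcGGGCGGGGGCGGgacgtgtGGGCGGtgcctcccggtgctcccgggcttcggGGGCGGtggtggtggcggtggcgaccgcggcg
The Usp16 window holds 1 E box and has a GC content of 56.3%. The Ube2v1 window holds 3 GC boxes at 70.3% GC, the Usp46 window holds 4 at 78% GC, and the Usp28 window holds 6 together with 1 CCAAT match at 74.7% GC. Over the 65 promoters of the 55 members, 69.2% held a GC box, 16.9% an E box, 20% a CCAAT match and 4.62% a TATAAA match. Over all 32851 promoters in the table the shares were 35.7% for the GC box, 7.15% for the E box, 37.4% for CCAAT and 13.6% for TATAAA. The median GC content was 65% for member promoters and 52.7% for all promoters. These matches describe the letters only.

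Stages were compared with limma on log2(intensity + 20), and a difference was called at a Benjamini-Hochberg adjusted p under 0.05 over all 15234 probe sets tested. Of the 66 members 59 passed the filter of reaching the median of all intensities, 82.6, on at least 4 arrays. The other 7 (Senp6, Ube2d2a, Usp19, Usp20, Usp44, Usp47 and Usp50) averaged at most 80.8 at any stage and were not tested. At or above that median on all 20 arrays were 37 members, and 11 members did not reach it on all 4 arrays of any stage. Expression differed among the 5 stages in 45 of the 59 tested members, or 76.3%. The same test called 53% of all tested probe sets and 59.5% of named genes read by their brightest probe set. The largest number of calls fell between the 2-cell and 8-cell stages and, over the whole course, between oocyte and blastocyst. Consecutive comparisons share the arrays of the stage between them, so their calls are not independent of each other. The profiles of all members are drawn in the map of stage means.

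**Figure D1:**
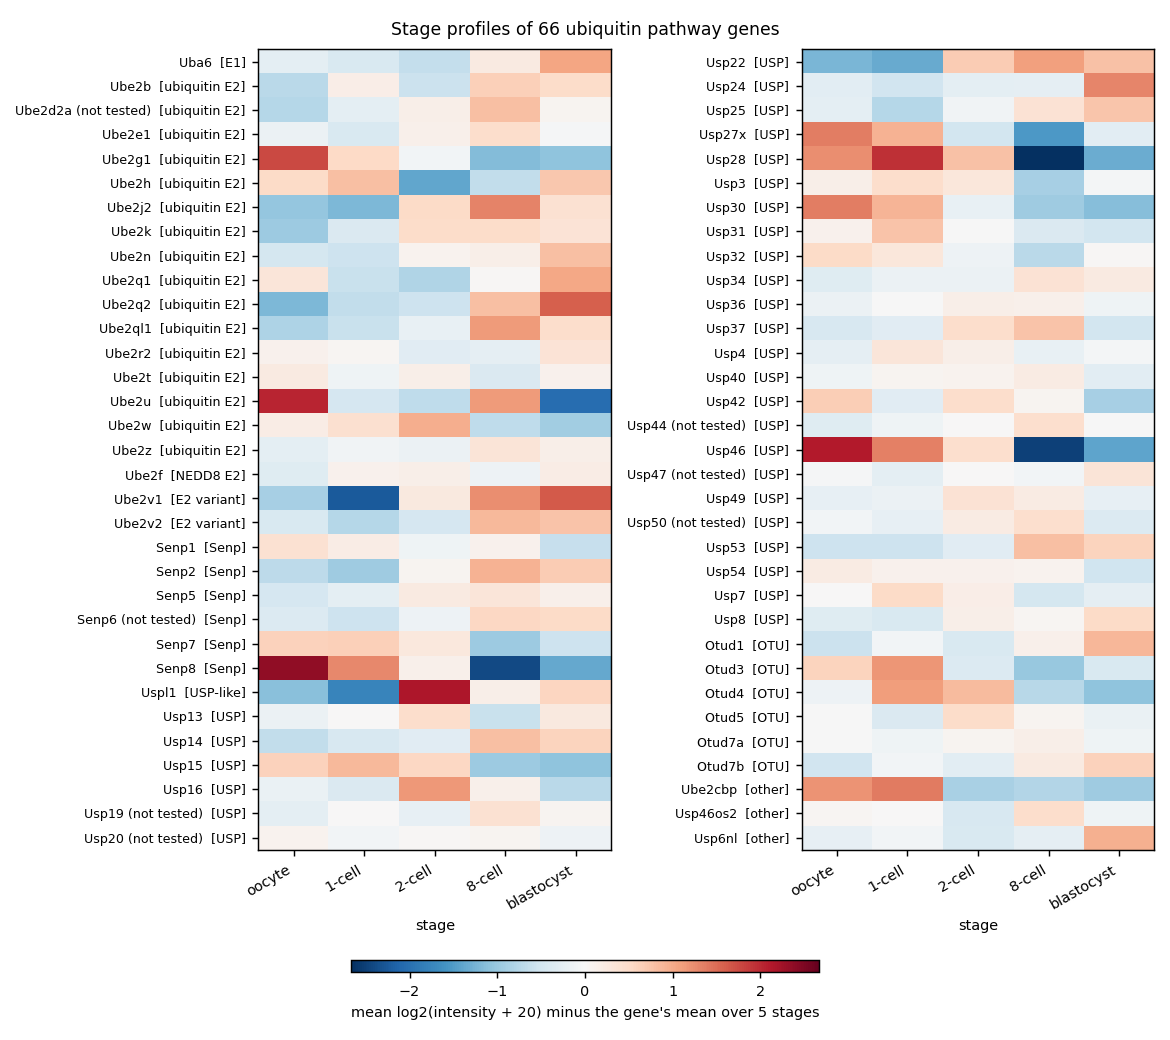
Mean log2(intensity + 20) at each stage (columns, 4 arrays each) minus the gene's own mean over the 5 stages, for 66 genes (rows) sorted by enzyme class, given in brackets. Red is above and blue below the gene's own mean. Usp46, Usp28, Senp8 and Ube2g1 are red on the left and blue on the right, Ube2v1, Usp22 and Ube2q2 run the other way, and the row of Uspl1 is red mainly in its 2-cell column.

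In 1-cell embryos few members differed from the oocyte, and most of those that did were lower. Among the 59 tested members, 3 were higher and 6 lower in 1-cell embryos than in oocytes. Of all tested probe sets 2.67% were higher and 4.26% lower, and of named genes by their brightest probe set 3.46% were higher and 6.27% lower. The median change over all 66 members, with no filter, was -0.02 on the log2 scale, and 0.03 over all probe sets. The 4 arrays of one stage lay wholly above or below the 4 of the other for 25.4% of the tested members, against 13.3% of all tested probe sets and 16.9% of named genes. The 3 that rose were Otud4, Usp31 and Otud3, all deubiquitinases, and 4 of the 6 that fell were of the Ube2 family. Of the 59 tested members 31 were Usp or Otud genes and 18 were of the Ube2 family.

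Otud4, a deubiquitinase of the ovarian tumour domain (OTU) family, had intensities of 696.0, 905.2, 920.3 and 765.6 on the 1-cell arrays, against 370.0, 371.0, 261.7 and 332.8 on the oocyte arrays. All 4 1-cell arrays lay above all 4 oocyte arrays, and the difference was 1.25 ± 0.18 on the log2 scale (SE, limma adjusted p = 3.87e-05). Usp31 averaged 876 ± 110.4 at the 1-cell stage and 546 ± 79 in oocytes (SD, n = 4 each), a difference of 0.66 (limma adjusted p = 0.0116). Otud3, another deubiquitinase of the OTU family, averaged 3217 ± 651 at the 1-cell stage and 2111 ± 227 in oocytes, a difference of 0.59 (limma adjusted p = 0.0344). Without oocyte replicate 4 only Otud4 of these 3 kept its call. The Otud3 call was lost under 7 of 31 other settings in all, among them quantile normalisation, with differences between 0.45 and 0.59. The other tested probe set of Otud3 differed by -0.62 at this step and those of Usp31 by 0.09 and 0.27, none of them called.

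Ube2u, a little studied conjugating enzyme, fell furthest at the 1-cell stage. It had 83.4, 58.2, 115.9 and 128.9 intensity units on the 1-cell arrays, against 479.9, 614.8, 578.9 and 854.0 on the oocyte arrays, a difference of -2.50 ± 0.33 on the log2 scale (limma adjusted p = 1.06e-05). Ube2v1, an inactive E2 variant that works with Ube2n to build ubiquitin chains used in signalling, averaged 83.4 ± 41.5 at the 1-cell stage and 230.0 ± 32.6 in oocytes, a difference of -1.36 (limma adjusted p = 0.000164). Ube2g1, a conjugating enzyme that extends degradative chains, averaged 5629 ± 1512 at the 1-cell stage and 12828 ± 1502 in oocytes, a difference of -1.22 (limma adjusted p = 0.00224). Both groups of arrays were fully separate for each of these genes. Senp8, which despite its name is a NEDD8 protease, fell by 1.07 (limma adjusted p = 0.0193), and Usp42, a nuclear deubiquitinase, fell by 0.96 (limma adjusted p = 0.00837). Ube2q1, of the Q class of conjugating enzymes, averaged 349 ± 46.2 at the 1-cell stage and 676 ± 77.5 in oocytes, a difference of -0.92 (limma adjusted p = 0.000263). The fall of Ube2g1 was not shared by its other probe set, which averaged 2436 ± 395 at the 1-cell stage and 1464 ± 288 in oocytes and was called the opposite way, by 0.73 on the log2 scale (limma adjusted p = 0.00996). Both other tested probe sets of Senp8 gave positive differences, of 1.01 and 0.34, and that of Ube2q1 gave 0.43, none of them called. The Senp8 call was lost under 4 of the settings that left out 1 array, with differences between -1.04 and -0.93. These were the settings without 1-cell replicate 1 or 2 and without oocyte replicate 2 or 3.

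Between the 1-cell and 2-cell stages similar numbers of members rose and fell, and the largest change of any member between consecutive stages was the 2-cell rise of Uspl1. In 2-cell embryos 10 members were higher and 9 lower than in 1-cell embryos, which is 16.9% and 15.3% of those tested. Of all tested probe sets 12.2% were higher and 9.34% lower, and of named genes 13.4% were higher and 13% lower. With each array centred on its median, which moved the median of all probe sets by -0.18 on the log2 scale, the members divided into 6 higher and 11 lower. The median change over all 66 members was 0.07, and 0.05 over all probe sets. The arrays of both stages were fully separate for 28.8% of the tested members, against 23.9% of all tested probe sets and 28.3% of named genes.

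Uspl1, a SUMO isopeptidase of nuclear Cajal bodies, had intensities of 2714.0, 2440.6, 3108.9 and 3619.3 on the 2-cell arrays, against 185.3, 106.2, 198.2 and 229.4 on the 1-cell arrays. Every 2-cell array lay far above every 1-cell array, and the stage means differed 16.5-fold. On the log2 scale the difference was 3.93 ± 0.22 (SE, limma adjusted p = 8.58e-13). In series order the stage means of Uspl1 were 291 ± 73.4 in oocytes, 179.8 ± 52.4 in 1-cell embryos, 2971 ± 512 in 2-cell embryos, 723 ± 157 in 8-cell embryos and 966 ± 141 in blastocysts. A test of both steps around the 2-cell stage called it a 2-cell peak (limma adjusted p = 5.32e-07). Blastocysts were above oocytes by 1.68 on the log2 scale (limma adjusted p = 6.95e-07).

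Usp16, which removes ubiquitin from histone H2A, was the other member called as a 2-cell peak, as were 1.44% of all tested probe sets and 1.74% of named genes. Its intensities were 876.1, 918.7, 874.4 and 855.1 on the 2-cell arrays, against 231.7, 295.3, 321.3 and 310.7 on the 1-cell arrays. The 4 2-cell arrays were close together and lay well above every array of every other stage. The difference was 1.55 ± 0.15 on the log2 scale (limma adjusted p = 2.01e-08), and the peak had an adjusted p of 6.88e-05. At the 8-cell stage Usp16 averaged 426 ± 52.5, and in blastocysts 227 ± 22, with a further fall of 0.85 between those stages (limma adjusted p = 0.000224).

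Usp22, the deubiquitinase of the SAGA transcription coactivator that acts on histone H2B, rose at the 2-cell stage and stayed high. It had 1323.3, 1008.8, 1618.0 and 1425.5 intensity units on the 2-cell arrays, against 352.3, 331.7, 262.0 and 300.4 on the 1-cell arrays, a difference of 2.03 ± 0.18 on the log2 scale (limma adjusted p = 3.39e-09). It averaged 1785 ± 310.2 at the 8-cell stage and 1445 ± 298 in blastocysts, and neither of these later steps was called, although the 8-cell step was called after quantile normalisation, at 0.68. Usp27x, an X-linked paralog that can bind the same cofactors, ran the other way. It averaged 179 ± 65.3 at the 2-cell stage and 495 ± 72.8 at the 1-cell stage (limma adjusted p = 7.64e-05), and 74.7 ± 22.1 at the 8-cell stage.

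Among conjugating enzymes, Ube2v1 averaged 533 ± 55.8 at the 2-cell stage and 83.4 ± 41.5 at the 1-cell stage, a difference of 2.51 ± 0.22 on the log2 scale (limma adjusted p = 3.5e-09). Its 2-cell arrays read 494.2, 481.2, 601.9 and 553.2, all above the highest 1-cell array at 130.4. Ube2j2, an enzyme of the endoplasmic reticulum membrane that serves protein quality control, averaged 96 ± 25.9 at the 2-cell stage and 17.7 ± 16.7 at the 1-cell stage, a difference of 1.70 (limma adjusted p = 0.000917). Ube2j2 was dim at both stages, and it passed the filter only through 2-cell and later arrays. Among proteases, Usp37, which acts in S phase entry, averaged 1057 ± 171 at the 2-cell stage and 605 ± 62.6 at the 1-cell stage, a difference of 0.78 (limma adjusted p = 0.000631), which its other tested probe set did not show, at -0.08. The other 4 rises were lost under median centring. These were Otud5 at 0.87, Usp42 at 0.78, Ube2e1 at 0.54 and Senp5, a nucleolar SUMO protease, at 0.50.

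The largest 2-cell falls were those of Ube2cbp and Ube2h. Ube2h, the conjugating enzyme of the CTLH ligase, had intensities of 322.1, 312.4, 283.7 and 289.9 on the 2-cell arrays, against 1649.1, 1800.5, 1747.8 and 807.5 on the 1-cell arrays. The 2-cell arrays were close to each other and all lay below the lowest 1-cell array, replicate 4, which was itself far below the other 3. The difference was -2.17 ± 0.23 on the log2 scale (limma adjusted p = 6.79e-08). Ube2cbp averaged 109 ± 82.5 at the 2-cell stage and 505 ± 94.4 at the 1-cell stage, a difference of -2.24 (limma adjusted p = 0.000643). Otud3 averaged 1071 ± 69.2 at the 2-cell stage and 3217 ± 651 at the 1-cell stage, a difference of -1.55 (limma adjusted p = 1.52e-07). Its other tested probe set was called the opposite way, with 726 ± 77.6 at the 2-cell stage and 259.9 ± 92.7 at the 1-cell stage (limma adjusted p = 1.02e-05). Usp30, the deubiquitinase of the outer mitochondrial membrane, averaged 439 ± 139 at the 2-cell stage and 949.9 ± 49.2 at the 1-cell stage, a difference of -1.12 (limma adjusted p = 0.000257). The other falls were those of Usp27x, given above, and of Usp28, Senp8, Usp31 and Usp46, which lay between -1.16 and -0.78, and the groups of arrays overlapped for Senp8 and Usp46. The other tested probe sets of Usp31 did not show its fall, at 0.03 and 0.17.

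Within the 2-cell stage, replicate 1 was the highest of the 4 arrays for 6 of the 9 members that fell at this stage. It was also highest for 11 of the 16 that fell at the 8-cell stage. Without that array 11 members were lower in 2-cell than in 1-cell embryos, and 14 were lower in 8-cell than in 2-cell embryos.

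**Figure D2:**
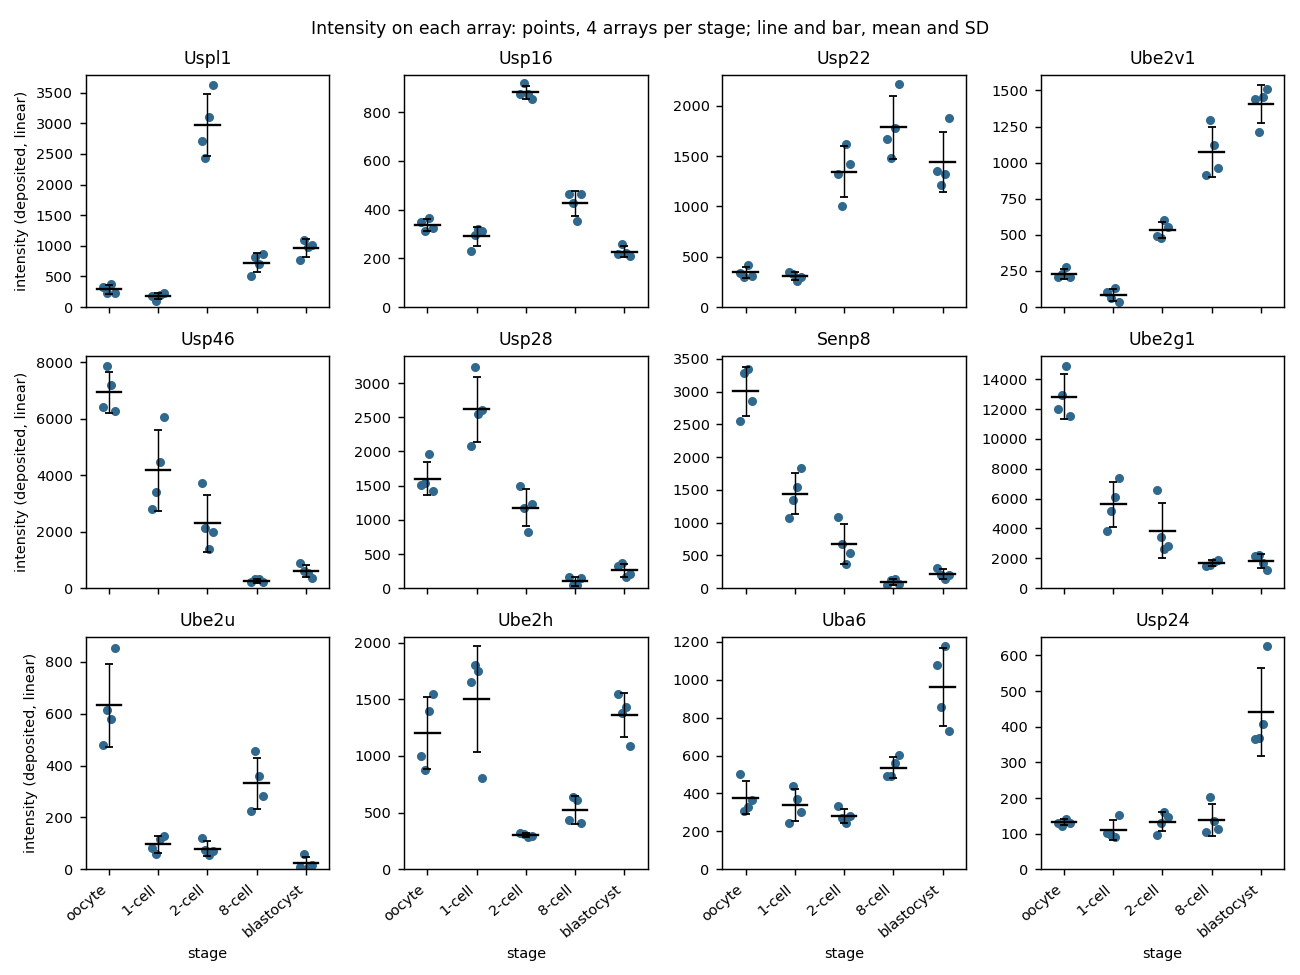
Deposited linear intensity (vertical axis) on each of 20 arrays by stage (horizontal axis) for 12 members, with the stage mean and SD (n = 4) as a line and bar. Uspl1 and Usp16 stand highest at the 2-cell stage, Usp22 and Ube2v1 are high from then on, Usp46, Senp8 and Ube2g1 run down from the oocyte, and Usp24 is high in blastocysts.

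At the 8-cell stage conjugating enzymes and deubiquitinases were called in different proportions. Over all members 13 were higher and 16 lower in 8-cell than in 2-cell embryos, 22% and 27.1% of those tested. Of all tested probe sets 14.1% were higher and 13.4% lower, and of named genes 15% were higher and 17.7% lower. Of the 18 tested genes of the Ube2 family 8 rose and 2 fell, and of the 31 tested Usp and Otud genes 3 rose and 11 fell. The median change with no filter was 0.64 on the log2 scale over all 19 Ube2 genes, -0.08 over all 36 Usp and Otud genes and 0.10 over all probe sets. Under the other settings tried, 5 to 9 Ube2 genes rose and 2 fell, and 2 to 5 Usp and Otud genes rose and 10 to 11 fell. No test compared the 2 families. Dim genes could pass the filter through the stages where they were high, which favours calls of a rise to those stages. The arrays of both stages were fully separate for 45.8% of the tested members, against 28.7% of all tested probe sets and 33.2% of named genes.

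**Figure D3:**
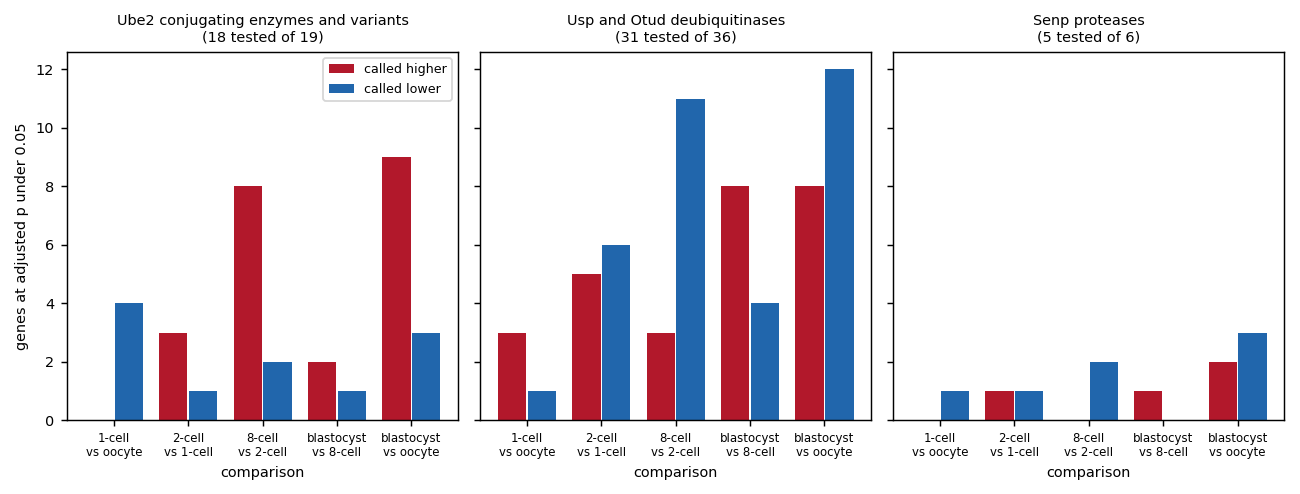
Number of genes called higher (red) or lower (blue) at an adjusted p under 0.05 in each comparison, for Ube2 conjugating enzymes and variants (18 tested of 19), Usp and Otud deubiquitinases (31 of 36) and Senp proteases (5 of 6). At the 8-cell stage 8 Ube2 genes were higher and 2 lower, whereas 3 Usp and Otud genes were higher and 11 lower.

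Ube2u showed the largest 8-cell rise and was the only member called as an 8-cell peak (limma adjusted p = 0.00111), as were 1.22% of all tested probe sets and 1.53% of named genes. Its arrays read 225.9, 455.1, 361.3 and 283.9 at the 8-cell stage, against 122.0, 73.8, 54.3 and 68.9 at the 2-cell stage, a difference of 1.82 ± 0.33 on the log2 scale (limma adjusted p = 0.000113). In blastocysts it read 9.1, 59.6, 6.1 and 14.6, where 3 of the 4 arrays lay below every array of every other stage. Ube2u was highest in oocytes, at 632 ± 159, so that its course had 2 maxima.

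The Q class of conjugating enzymes has 3 members here, and all rose at the 8-cell stage. Ube2q2 averaged 226 ± 42.3 at the 8-cell stage and 75.4 ± 14.1 at the 2-cell stage, a difference of 1.36 ± 0.32 on the log2 scale (limma adjusted p = 0.0018). Ube2ql1 averaged 196 ± 25.2 at the 8-cell stage and 68.8 ± 27.9 at the 2-cell stage, a difference of 1.33 (limma adjusted p = 0.00844). Ube2q1 averaged 553 ± 67.7 at the 8-cell stage and 303 ± 46.6 at the 2-cell stage, a difference of 0.83 (limma adjusted p = 0.000176). Neither Ube2q2 nor Ube2ql1 would have passed the filter without its 8-cell and blastocyst arrays, so the filter favoured their calls of a rise. Ube2q1 and Ube2q2 were highest in blastocysts, at 1120.1 ± 125 and 425 ± 180.3.

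Both E2 variants rose as well. Ube2v1 averaged 1073 ± 174 at the 8-cell stage and 533 ± 55.8 at the 2-cell stage, a difference of 0.98 (limma adjusted p = 0.00136). Ube2v2, which partners Ube2n in DNA damage tolerance, averaged 74.2 ± 28.8 at the 8-cell stage and 20.2 ± 23.6 at the 2-cell stage, a difference of 1.32 (limma adjusted p = 0.0281) between groups of arrays that overlapped. Because Ube2v2 passed the filter only through 8-cell and blastocyst arrays, where it was high, the filter favoured this call. Ube2n itself averaged 126 ± 27.1 at the 8-cell stage and 119 ± 17 at the 2-cell stage, a difference of 0.06 that was not called (limma adjusted p = 0.925). In blastocysts Ube2n averaged 207 ± 21.4, and in oocytes 75.9 ± 21.6, with a called difference of 1.26 (limma adjusted p = 0.00771). Ube2b, a mammalian counterpart of yeast Rad6, rose by 1.21 at the 8-cell stage (limma adjusted p = 0.0254) from dim signals, at 80.7 ± 27.1 against 22.5 ± 2.1 at the 2-cell stage. Ube2b would not have passed the filter without its 8-cell arrays, so the filter favoured this call too. The call was lost without 2-cell replicate 1 or 8-cell replicate 1 or 4, at 1.04 to 1.19. Ube2h rose by 0.73 (limma adjusted p = 0.0177), a call lost under median centring and without 8-cell replicate 2 or 3, at 0.63 to 0.65. Ube2g1 and Ube2w, which attaches ubiquitin to protein amino termini, were the 2 conjugating enzymes that fell, with differences of -1.09 and -1.65.

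Uba6, an activating enzyme that serves both ubiquitin and the ubiquitin-like FAT10, averaged 536 ± 54.4 at the 8-cell stage and 282 ± 37.4 at the 2-cell stage, a difference of 0.88 (limma adjusted p = 0.00115). In blastocysts it rose again to 961 ± 204 (limma adjusted p = 0.00542), a step at which its 2 other tested probe sets were not called, at 0.48 and -0.04. Ube2z, the conjugating enzyme dedicated to Uba6, averaged 372 ± 42.8 at the 8-cell stage and 267 ± 76.4 at the 2-cell stage, a difference of 0.49 that was not called (limma adjusted p = 0.128). Ube2f, the NEDD8 conjugating enzyme, showed no call in any comparison, with stage means between 162 and 239.

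Among deubiquitinases that fell at the 8-cell stage, Usp28 and Usp46 fell furthest. Usp28, which counters the Fbxw7 ligase and stabilises Myc, had intensities of 170.7, 44.0, 41.7 and 151.6 on the 8-cell arrays, against 1490.7, 1173.2, 823.7 and 1231.0 on the 2-cell arrays. The stage means differed 11.6-fold and the difference was -3.46 ± 0.31 on the log2 scale (limma adjusted p = 3.09e-09). In series order it averaged 1604 ± 242 in oocytes, 2618 ± 479 in 1-cell embryos, 1179.7 ± 275 in 2-cell embryos, 102 ± 68.8 in 8-cell embryos and 265 ± 95.2 in blastocysts. Usp25, its closest paralog, averaged 267 ± 30 at the 8-cell stage and 192 ± 65.7 at the 2-cell stage, a difference of 0.48 that was not called (limma adjusted p = 0.258).

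Usp46, whose activity depends on the cofactor Wdr48, had 213.9, 333.9, 317.9 and 204.1 intensity units on the 8-cell arrays, against 3735.0, 2121.3, 1383.5 and 1973.2 on the 2-cell arrays. The difference was -2.95 ± 0.28 on the log2 scale (limma adjusted p = 7.53e-09), and its other probe set fell by 3.61 (limma adjusted p = 2.68e-10). Wdr48 averaged 254 ± 74.8 at the 8-cell stage and 749.5 ± 183 at the 2-cell stage, a difference of -1.50 (limma adjusted p = 0.000281). Senp8 averaged 97.5 ± 44.2 at the 8-cell stage and 669 ± 303 at the 2-cell stage, a difference of -2.53 ± 0.28 (limma adjusted p = 1.35e-07). It was highest in oocytes, at 3009 ± 375. The 2 other tested probe sets of Senp8 differed by -0.93 and 0.27 at this step, neither of them called.

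Usp15, which acts on the TGF-beta pathway, averaged 354 ± 72.4 at the 8-cell stage and 1044 ± 233 at the 2-cell stage, a difference of -1.50 (limma adjusted p = 9.16e-07). Both of its other tested probe sets also fell, with differences of -2.99 and -2.98. Usp4, a paralog of Usp15, averaged 150.2 ± 46.1 at the 8-cell stage and 194 ± 36.9 at the 2-cell stage, and was called in no comparison. Otud4 averaged 211 ± 24 at the 8-cell stage and 675 ± 96.4 at the 2-cell stage, a difference of -1.58 (limma adjusted p = 1.85e-07). Usp7, which controls p53 through Mdm2, averaged 1390.0 ± 162 at the 8-cell stage and 2211 ± 302 at the 2-cell stage, a difference of -0.66 (limma adjusted p = 0.00399) that was lost under quantile normalisation, at -0.42. Of its other tested probe sets, 2 were not called at this step, at -0.27 and 0.35. The remaining falls of Usp and Otud genes were those of Usp3, Usp16, Usp27x, Usp30, Usp32 and Otud3, between -1.18 and -0.58. Those that rose were Usp14, a deubiquitinase bound to the proteasome, by 1.10 (limma adjusted p = 0.000146), Usp53 by 1.11 and Otud1 by 0.55. The Otud1 call, with a limma adjusted p of 0.0462, was lost under 15 of 31 other settings.

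Between the 8-cell stage and the blastocyst more members rose than fell. In blastocysts 13 members were higher and 5 lower than in 8-cell embryos, 22% and 8.47% of those tested. Of all tested probe sets 7.98% were higher and 6.58% lower, and of named genes 11.1% were higher and 7.77% lower. The median change over all 66 members was -0.12 on the log2 scale, and -0.07 over all probe sets, so that the balance of calls and the median differ in sign. The arrays were fully separate for 35.6% of the tested members, against 17.6% of all tested probe sets and 21.8% of named genes.

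Usp24 was low and even through the 8-cell stage and rose in blastocysts. Its arrays read 364.2, 369.2, 406.3 and 625.5 in blastocysts, against 103.8, 202.0, 136.7 and 112.2 at the 8-cell stage, a difference of 1.54 ± 0.24 on the log2 scale (limma adjusted p = 3.61e-05), while its other tested probe set differed by 0.11 and was not called. Ube2h rose to 1361 ± 194 in blastocysts, against 524 ± 122 at the 8-cell stage, a difference of 1.36 (limma adjusted p = 0.000111). It averaged 1203 ± 319 in oocytes. The difference of blastocysts from oocytes, 0.20, was not called, but reached 0.60 and was called under quantile normalisation. Usp6nl, the Rab GTPase activator, averaged 485 ± 74.3 in blastocysts and 199.6 ± 12.2 at the 8-cell stage, a difference of 1.19 (limma adjusted p = 8.2e-05). Ube2q1 rose by 0.99 (limma adjusted p = 4.66e-05), Otud1 by 0.75 and Usp32 by 0.76.

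Several members that had fallen at the 8-cell stage rose in blastocysts, to levels below those of the oocyte. Usp28 averaged 265 ± 95.2 in blastocysts and 102 ± 68.8 at the 8-cell stage, a difference of 1.36 (limma adjusted p = 0.00291) between groups of arrays that overlapped. Usp27x averaged 203 ± 32.5 in blastocysts and 74.7 ± 22.1 at the 8-cell stage (limma adjusted p = 0.00059). Usp46 rose by 1.09 and Senp8 by 1.04, with limma adjusted p-values of 0.00751 and 0.0129. Because these comparisons share the 8-cell arrays, a low reading on those arrays enters both the fall and the rise.

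Ube2u fell furthest in blastocysts, by 3.16 on the log2 scale (limma adjusted p = 1.26e-07). Usp37 averaged 526 ± 46.1 in blastocysts and 1279 ± 121 at the 8-cell stage, a difference of -1.25 ± 0.16 (limma adjusted p = 2.8e-06). Its blastocyst arrays read 592.1, 508.5, 485.7 and 516.9, against 1312.4, 1201.3, 1167.2 and 1435.3 at the 8-cell stage. Usp42 fell by 0.96, Usp16 by 0.85 and Usp54 by 0.62.

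Over the whole course, from oocyte to blastocyst, 22 members were higher and 19 lower in blastocysts, 37.3% and 32.2% of those tested. Of all tested probe sets 21.6% were higher and 16.1% lower, and of named genes 21.9% were higher and 21.2% lower. The median change over all 66 members was 0.19 on the log2 scale, and 0.12 over all probe sets. The arrays of the 2 stages were fully separate for 62.7% of the tested members, against 35.5% of all tested probe sets and 41.3% of named genes. In the Ube2 family 9 genes were higher and 3 lower, and among Usp and Otud genes 8 were higher and 12 lower. With each array centred on its median, which moved the median of all probe sets by -0.19, the Ube2 genes divided into 6 higher and 3 lower. Over all settings tried, 3 to 9 Ube2 genes were higher and 2 to 3 lower.

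The largest net rises were those of Ube2q2, Ube2v1, Usp22 and Uspl1. Ube2q2 read 329.4, 308.8, 692.9 and 368.9 in blastocysts, against 70.4, 9.3, 64.5 and 41.6 in oocytes, a difference of 2.79 ± 0.32 on the log2 scale (limma adjusted p = 9.54e-08). As said above, Ube2q2 passed the filter only through the stages where it was high, which favoured this call. Ube2v1 read 1439.4, 1213.1, 1456.6 and 1508.6 in blastocysts, against 206.7, 226.8, 277.1 and 209.4 in oocytes, a difference of 2.51 ± 0.22 (limma adjusted p = 1.15e-09). Usp22 rose by 2.00 (limma adjusted p = 1.51e-09). In each of these genes every blastocyst array lay above every oocyte array.

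The largest net falls were those of Ube2u, Senp8, Usp46 and Ube2g1. Ube2u differed by -4.07 ± 0.33 (limma adjusted p = 2.4e-10). Senp8 read 313.4, 205.4, 146.2 and 194.4 in blastocysts, against 2547.5, 3283.3, 3343.9 and 2861.0 in oocytes, a difference of -3.73 ± 0.28 on the log2 scale (limma adjusted p = 9.26e-11). Usp46 read 894.7, 623.9, 549.8 and 362.5 in blastocysts, against 6420.6, 7845.8, 7172.1 and 6261.1 in oocytes, a difference of -3.53 ± 0.28 (limma adjusted p = 1.67e-10). Ube2g1 read 2150.6, 2231.5, 1659.9 and 1230.4 in blastocysts, against 11971.0, 12934.7, 14897.1 and 11509.4 in oocytes, a difference of -2.84 ± 0.25 (limma adjusted p = 1.35e-09). All 4 genes had separate groups of arrays. Usp30 and Usp28 fell by 2.50 and 2.56.

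Of the SUMO proteases, Senp1 averaged 219 ± 67.9 in blastocysts and 449 ± 44.8 in oocytes (limma adjusted p = 0.00219), and Senp7, which trims SUMO chains, 107 ± 52.5 in blastocysts and 239 ± 44.3 in oocytes (limma adjusted p = 0.0225). Senp2 averaged 122 ± 63.6 in blastocysts and 38.2 ± 42.3 in oocytes (limma adjusted p = 0.0224), and Senp5 417 ± 69.5 in blastocysts and 271 ± 43.5 in oocytes (limma adjusted p = 0.00787). Senp1 and Senp2, closely related nuclear proteases, differed in direction, and the groups of arrays of Senp2 overlapped. Senp2 would not have passed the filter without its 8-cell and blastocyst arrays, which favoured its call. The Senp2 call was lost under 7 of 30 other settings, among them median centring and quantile normalisation, and the Senp5 call under median centring. The Senp7 call was lost without blastocyst replicate 2 or oocyte replicate 3 or 4. Both other tested probe sets of Senp7 did not show its fall, at -0.30 and 0.36, and were not called. Otud7b, which cuts chains made by the anaphase-promoting complex, averaged 486 ± 226 in blastocysts and 199 ± 59.5 in oocytes (limma adjusted p = 0.00674), whereas its paralog Otud7a kept stage means between 146 and 183 with no call. Usp36, a nucleolar deubiquitinase, with stage means between 426 and 537, and Usp40, with stage means between 167 and 244, also showed no call. The other tested probe sets of Usp40 differed at the 8-cell step. One was called higher, by 1.26 (limma adjusted p = 0.0167), another lower, at -1.32 (limma adjusted p = 0.0339), and the last was not called. Absence of a call between consecutive stages did not mean a flat course. Senp1, Senp2 and Otud7b had no such call, yet differed between oocyte and blastocyst as given above.

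Other probe sets of the same genes gave a partial check of these profiles. Of 52 other probe sets of the members, 39 were tested, and they belong to 26 members. Where the brightest probe set was called, another tested probe set of the gene was called the same way in 41 of 84 cases, was not called in 40 and was called the opposite way in 3. The opposite cases were Ube2g1 at the 1-cell stage and Otud3 at the 2-cell stage, given above, and Usp32 between oocyte and blastocyst. At the second probe set of Usp32 the intensity was 293 ± 101 in blastocysts and 109 ± 40 in oocytes (limma adjusted p = 0.0204), while at the brightest it was 973 ± 53.2 in blastocysts and 1387 ± 294 in oocytes (limma adjusted p = 0.0213). For Ube2h, Ube2v1, Usp15 and Usp46 the other tested probe sets were called in the same direction as the brightest at the 8-cell stage, although that of Usp46 was highest at the 1-cell stage, not in oocytes. For Ube2v1, Ube2h, Usp15, Usp7 and Otud5 the brightest probe set is of a type (x_at or s_at) that can also bind related transcripts. The same holds for Wdr48 and the markers Bmp15, Epcam, Esrrb and Amhr2 above, and for Map1lc3a, Urm1, Sae1 and Abraxas2 below.

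**Figure D4:**
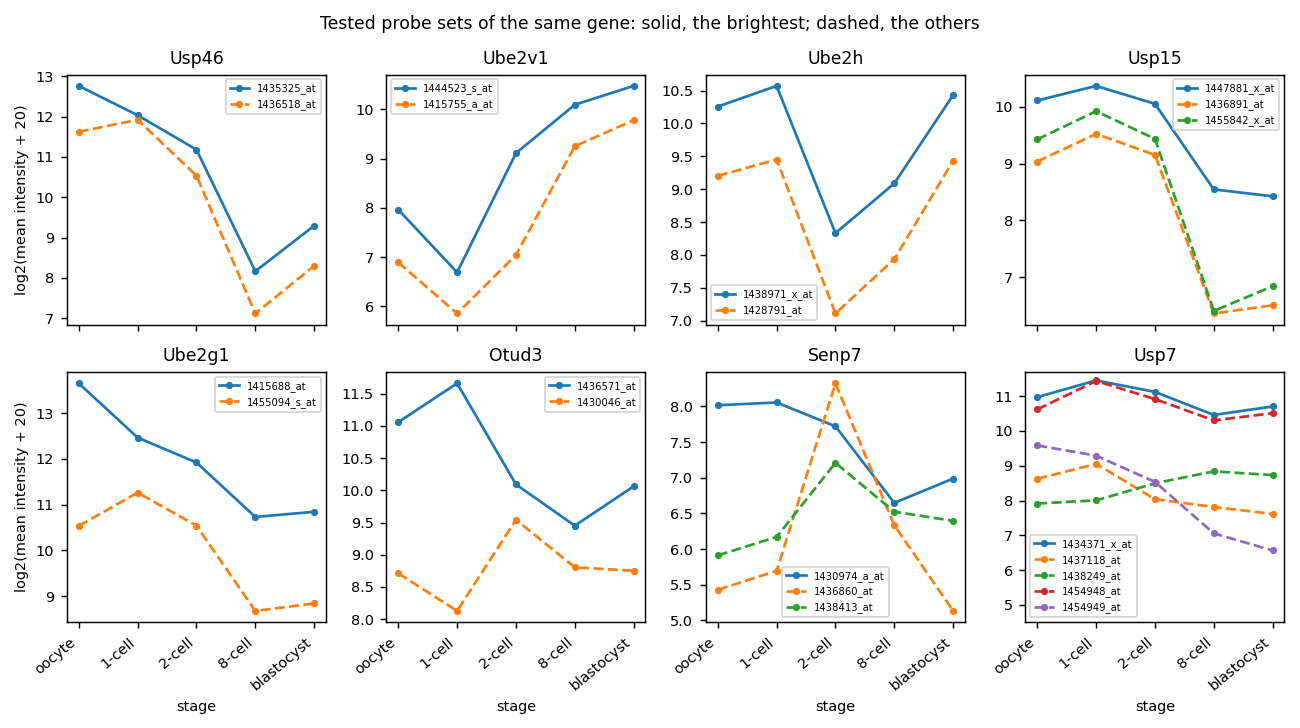
Stage means as log2(mean intensity + 20) (vertical axis) by stage (horizontal axis) for every tested probe set of 8 genes, with the brightest as a solid line and the others dashed. For Usp46, Ube2v1, Ube2h and Usp15 the probe sets of a gene move the same way between the 2-cell and 8-cell stages, whereas the second probe set of Otud3 and both further probe sets of Senp7 are highest in 2-cell embryos, unlike the brightest, and the 5 probe sets of Usp7 take differing courses.

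Genes that work with these enzymes were read from lists of the wider ubiquitin system, each gene by its brightest probe set. At the 8-cell stage 14.1% of all tested probe sets were higher and 13.4% lower. Of named genes by their brightest probe set 15% were higher and 17.7% lower. Of 22 genes for ubiquitin and ubiquitin-like modifiers 4 were on the array and 3 were tested, and all 3 (Map1lc3a, Gabarapl2 and Urm1) rose at the 8-cell stage. Map1lc3a, which marks autophagosomes, averaged 17857 ± 2566 at the 8-cell stage and 5489 ± 713 at the 2-cell stage, a difference of 1.70 (limma adjusted p = 2.84e-07). Of 22 tested HECT and RBR ligases, 7 (31.8%) rose and 3 (13.6%) fell at the 8-cell stage, the falls being near the share over all probe sets. Smurf2, which acts on TGF-beta receptors, averaged 1291 ± 179 at the 8-cell stage and 4750.3 ± 495 at the 2-cell stage (limma adjusted p = 1.45e-09), and Itch, a HECT ligase, 789 ± 62.8 at the 8-cell stage and 447 ± 51.1 at the 2-cell stage (limma adjusted p = 0.000125). Of 12 tested cullin ligase and neddylation genes, 4 (33.3%) rose and 2 (16.7%) fell at the 8-cell stage. Cand1, which exchanges cullin substrate receptors, averaged 1384 at the 8-cell stage and 201 at the 2-cell stage (limma adjusted p = 6.58e-10). Of 10 tested genes of the anaphase-promoting complex 4 (40%) rose and 0 fell, with Cdc27 at 1351 at the 8-cell stage and 396 at the 2-cell stage (limma adjusted p = 2.66e-07).

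Other lists gave smaller counts. At the 2-cell stage 12.2% of all tested probe sets were higher and 9.34% lower. Of named genes 13.4% were higher and 13% lower. Counts at the 8-cell stage stand beside the shares given for that stage above. The comparison described differs between lists, and most lists are described at 1 comparison only. Of 12 tested deubiquitinases outside the named families, 1 was higher and 1 lower at the 2-cell stage, 8.33% in each direction and thus no more than over all probe sets. Atxn3, which edits chains on proteins bound for degradation, averaged 738 ± 61.7 at the 2-cell stage and 189 ± 18.9 at the 1-cell stage (limma adjusted p = 7.87e-08), and Vcpip1, which works with p97 in Golgi assembly, 282 ± 26 at the 2-cell stage and 1191 ± 117 at the 1-cell stage (limma adjusted p = 2.44e-08). Of 13 tested deubiquitinase cofactors 1 (7.69%) was higher and 4 (30.8%) were lower at the 2-cell stage. Among them were Abraxas2, higher at 1378 ± 239 at the 2-cell stage and 470.4 ± 51.2 at the 1-cell stage, and Nfrkb, lower at 811 ± 127 at the 2-cell stage and 2859.7 ± 46.4 at the 1-cell stage. Of 5 tested partner subunits of activating and related enzymes 1 (20%) rose and 2 (40%) fell at the 8-cell stage. Atg5, which attaches to Atg12 in autophagy, fell to 314 ± 50.2 at the 8-cell stage, against 1374 ± 539 at the 2-cell stage (limma adjusted p = 1.42e-07). Sae1, a subunit of the SUMO activating enzyme, averaged 2253 ± 136 at the 8-cell stage and 1148 ± 224 at the 2-cell stage (limma adjusted p = 6.96e-05). Of 7 tested SUMO ligases 2 (28.6%) rose and 1 (14.3%) fell at the 8-cell stage, the fall being near the share over all probe sets. Zmiz1 averaged 2481 at the 8-cell stage and 676 at the 2-cell stage (limma adjusted p = 1.01e-06). Of 10 tested p97 and shuttle factors 1 (10%) was higher and 3 (30%) were lower at the 2-cell stage, with Plaa at 448 at the 2-cell stage and 1275 at the 1-cell stage (limma adjusted p = 2.4e-06). At the 8-cell stage 0 of these factors rose and 1 (10%) fell.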

How the data were processed

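The deposited values are linear intensities, 1 per probe set, on 20 arrays, and the sources used here do not name the authors' software, probe summary or scaling. Per the labels, total RNA had 2 rounds of amplification. Stages and replicate numbers came from the titles, and no pair of arrays held the same values. Intensities were analysed as log2(intensity + 20) without further normalisation. Control probe sets were left out, and 15234 of 22511 probe sets at or above the table median (82.6) on at least 4 arrays were fitted with limma 3.58.1 (R 4.3.3) with stage means, an intensity trend and 15 residual degrees of freedom. Differences were called at a Benjamini-Hochberg adjusted p under 0.05. A peak used the larger of both 1-sided p-values around a stage. The fit was tested on simulated data. Symbols came from the platform's annotation, where 14661 probe sets had 1 symbol, 245 several and 7605 none, and the brightest probe set was the one of highest mean log2 value.

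Genes named are the largest called rises and falls with separate groups of arrays in each comparison, whole small classes, the brightest and flattest members, peaks, and paralog sets, 45 members in all. Further members named to complete a list were chosen after their values were seen. Members and lists were chosen with earlier results of these data known. Alternatives were other pseudocounts, filters, scalings, moderation, array weights and probe set choices, the replicate number as a block, and leaving out each array.

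Replicate numbers did not pair arrays: deviations of same-numbered arrays correlated between -0.062 and 0.063.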

Additional observations from a re-analysis of the deposited data

Results flagged for a closer look

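In 19 of 295 groups of 4 arrays, 1 array lay far from the other 3, with a gap to its nearest neighbour, as a share of the group's range, above the 95% critical value of Dixon's test. Chance gives such a gap in about 1 in 20 groups. For Ube2h, 1-cell replicate 4 read 807.5, against 1649.1 to 1800.5 on the other arrays of that stage. For Usp24, blastocyst replicate 4 read 625.5, against 364.2 to 406.3, and 1-cell replicate 4 read 153.0, against 91.5 to 100.4. For Ube2u, blastocyst replicate 2 read 59.6, against 6.1 to 14.6. For Ube2q2, blastocyst replicate 3 read 692.9, against 308.8 to 368.9, and 8-cell replicate 4 read 289.7, against 201.8 to 207.1. For Usp27x, oocyte replicate 2 read 475.0, against 719.6 to 768.2.

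Among Senp proteases, Senp2 read 81.2 on 8-cell replicate 3, against 146.1 to 155.3, Senp5 read 520.3 on blastocyst replicate 1, against 371.3 to 391.2, and Senp7 read 28.8 on blastocyst replicate 2, against 122.0 to 140.8. Among members with flat profiles, Otud7a read 175.3 on 1-cell replicate 3, against 134.5 to 137.1, Ube2f read 294.3 on blastocyst replicate 3, against 215.2 to 228.1, and Usp13 read 197.9 on 2-cell replicate 3, against 91.9 to 94.6. Usp3 read 738.7 on oocyte replicate 3, against 415.5 to 438.1. On 1-cell replicate 4, Usp53 read 267.3, against 177.5 to 180.2, and Usp8 read 210.9, against 103.4 to 119.8. Usp6nl read 259.7 on 1-cell replicate 3, against 212.9 to 220.2, and 217.7 on 8-cell replicate 2, against 191.6 to 195.5. Usp46os2 read 23.3 on 2-cell replicate 4, against 90.5 to 99.4.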

How the results depend on the processing

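Of 116 called pairs of a tested member and a comparison, 87 kept direction and call under every alternative, and no called value changed sign. Centring each array on its median left 6 members higher in 2-cell than in 1-cell embryos, against 10, as Otud5, Senp5, Ube2e1 and Usp42 lost their calls. Over the whole course 17 members were higher under median centring, against 22, and 15 under a filter at the 75th percentile, which leaves out dim members. Without oocyte replicate 4, 1 member was higher at the 1-cell stage than in the oocyte, against 3. Leaving out each array in turn gave, at the 1-cell stage, 1 to 4 members higher and 5 to 8 lower, at the 2-cell stage 7 to 10 higher and 8 to 11 lower, at the 8-cell stage 9 to 13 higher and 14 to 16 lower, in blastocysts 10 to 14 higher and 5 to 6 lower, and over the whole course 18 to 22 higher and 17 to 19 lower. With the replicate block, 8 members rose in 2-cell and 12 in 8-cell embryos, 20 rose over the whole course, and 6 fell in blastocysts, with the other counts of members higher or lower as without it; the labels' numbers did not pair arrays. Among named members, the 2-cell fall of Usp46 was lost under 5 alternatives (-0.84 to -0.49) and that of Usp28 under quantile normalisation (-0.80), and the 8-cell rise of Ube2v2 under 6. With the lowest signals near the pseudocount, fold changes of dim members such as Ube2u in blastocysts are understated on the log2 scale.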

Other observations

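Further probe sets of 2 members showed a 2-cell peak that the brightest probe set of the gene did not. They were singled out after their values were seen. Neither would have passed the filter without its 2-cell arrays, so a test of the peak gives no support and its p-value is left out. At a further probe set of Senp7, a protease of SUMO chains, intensities were 181.9, 377.5, 345.6 and 297.0 on the 2-cell arrays, against 31.8, 21.1, 16.6 and 57.8 on the 1-cell arrays. At the 8-cell stage it read 43.1, 29.4, 36.7 and 133.2. The brightest Senp7 probe set averaged 191 ± 60.8 at the 2-cell stage and 246 ± 54.5 at the 1-cell stage.

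At a further probe set of Usp50, a Usp family member, intensities were 134.2, 108.6, 212.4 and 126.6 on the 2-cell arrays, against 14.1, 6.1, 6.6 and 15.2 on the 1-cell arrays. At the 8-cell stage it read 14.2, 17.3, 11.3 and 10.6. All 4 2-cell arrays of either probe set lay above every array of every other stage.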
